A study of Mus musculus with 65 samples.

Results

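The crystallins are the abundant soluble proteins of the eye lens, and 9 of their genes were followed here through retinal RNA of 65 mice: Cryaa, Cryab, Cryba1, Cryba2, Cryba4, Crybb1, Crybb2, Crybb3 and Crygs. They were chosen by symbol among the 50686 genes counted in the series. Cryaa, Cryba1, Crybb2 and Crygs had been named in an earlier analysis of these data for lower counts in one group, REPOP10, than in another, DEP14, so the values in those groups are a description, the comparison between them is not tested, and nothing is read from counts of these 4 genes in fits that hold DEP14 or REPOP10 mice. The question put to the genes was whether all rose together in single mice or whether some, such as Cryab, differed with the treatment of the retina.

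Each sample was the retina of an adult wild-type C57BL/6J mouse, and the series asked how the removal and return of microglia affect the retinal transcriptome. CD mice (n = 5) received the AIN-76A control diet, and 1 of them is labelled 2M (replicate 2M) beside replicates 1 to 4, a mark the labels use for 2 months in REPOP60 and do not explain for CD. PLX5622, an inhibitor of the receptor CSF1R on which microglia depend, was given in the same diet for 2, 5, 7, 10, 14 or 21 days (DEP2, DEP5, DEP7, DEP10, DEP14 and DEP21). Repopulated mice were returned to the control diet after 14 days of PLX5622 and were taken 3, 5, 7, 10, 14 or 21 days later (REPOP3, REPOP5, REPOP7, REPOP10, REPOP14 and REPOP21), or after 2 months (REPOP60). Lipopolysaccharide (LPS), a bacterial endotoxin, was given systemically to control diet mice (LPSCD, n = 3) and to repopulated mice (LPSREPOP, n = 4), and the LPSREPOP label names PLX5622 and LPS without a repopulation time. DEP5 had 3 mice, REPOP7 had 6 and each of the remaining groups had 4. Sample titles ended in RE for 39 mice and in re for 26, a split that the labels do not explain. The 3 DEP5 mice were all RE, the REPOP60, LPSCD and LPSREPOP mice were all re, and every other group held both.

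Alpha-crystallins (Cryaa and Cryab) are small heat shock proteins that keep unfolding proteins in solution. Beta-crystallins (the Cryba and Crybb genes) and gamma-crystallins (Crygs) are structural proteins that fill lens fibre cells and give the lens its refractive index. Cryaa and most beta- and gamma-crystallins are made chiefly in the lens, whereas Cryab is also made in muscle, heart and glial cells, Müller glia of the retina included.

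Positions are given on GRCm38 with GENCODE M21. Cryaa lies on the plus strand of chromosome 17 from 31677807 to 31681733, and 273 of its 2076 exonic bases overlap an antisense gene, AC090881.2. Cryab lies on the plus strand of chromosome 9 from 50751325 to 50756636, head to head with Hspb2, another small heat shock gene, with which it shares 252 exonic bases on opposite strands. Whether the counting used strand is not given in the sources used here, so reads in these overlaps cannot be assigned with certainty. Chromosome 5 holds 4 members in 2 neighbouring pairs, Cryba4 (112246493 to 112252518, minus) with Crybb1 (112255815 to 112269585, plus), and Crybb2 (113058258 to 113070117, minus) with Crybb3 (113075839 to 113081584, minus). Cryba1 lies on chromosome 11 (77718615 to 77725283, minus), Cryba2 on chromosome 1 (74889934 to 74893143, minus) and Crygs on chromosome 16 (22805203 to 22811577, minus).

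Promoter sequences were matched in RefSeq (GRCm38.p6) for 8 of the 9 members, and none was found for Cryab. They are shown for 4 genes that were high in the same mice (Cryaa, Cryba1, Crygs and Crybb2) and for Crybb3, which followed them least. Each is the 250 bases before the start site, 5' to 3' on the gene's strand. The start sites are those of RefSeq, which for Cryaa and Crygs lie inside the GENCODE gene given above, so that these windows overlap it. The windows are chr17:31677681-31677930 (plus) for Cryaa, chr11:77725294-77725543 (minus) for Cryba1, chr16:22811411-22811660 (minus) for Crygs, chr5:113081585-113081834 (minus) for Crybb3 and chr5:113070118-113070367 (minus) for Crybb2. Capitals mark TGCTGA, the core of the element bound by Maf factors that act in lens fibre cells, and TATAAA, the TATA box, each searched on both strands.
Cryaa: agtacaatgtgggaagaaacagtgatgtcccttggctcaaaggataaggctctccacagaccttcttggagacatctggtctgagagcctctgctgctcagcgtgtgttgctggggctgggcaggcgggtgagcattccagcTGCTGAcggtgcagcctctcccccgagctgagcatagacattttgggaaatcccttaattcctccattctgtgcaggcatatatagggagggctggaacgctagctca
Cryba1: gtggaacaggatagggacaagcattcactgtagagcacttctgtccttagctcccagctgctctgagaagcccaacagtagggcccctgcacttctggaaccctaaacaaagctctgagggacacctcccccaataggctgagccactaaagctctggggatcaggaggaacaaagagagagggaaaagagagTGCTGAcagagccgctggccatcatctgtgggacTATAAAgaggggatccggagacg
Crygs: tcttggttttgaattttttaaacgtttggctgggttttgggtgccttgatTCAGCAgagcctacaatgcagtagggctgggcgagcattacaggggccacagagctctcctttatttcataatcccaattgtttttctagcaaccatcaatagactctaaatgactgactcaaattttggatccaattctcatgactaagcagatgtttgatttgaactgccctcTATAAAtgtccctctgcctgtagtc
Crybb3: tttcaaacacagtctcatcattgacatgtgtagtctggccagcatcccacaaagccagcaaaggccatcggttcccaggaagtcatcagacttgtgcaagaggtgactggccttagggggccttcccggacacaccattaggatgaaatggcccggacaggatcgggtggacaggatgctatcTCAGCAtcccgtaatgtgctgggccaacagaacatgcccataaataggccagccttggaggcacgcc
Crybb2: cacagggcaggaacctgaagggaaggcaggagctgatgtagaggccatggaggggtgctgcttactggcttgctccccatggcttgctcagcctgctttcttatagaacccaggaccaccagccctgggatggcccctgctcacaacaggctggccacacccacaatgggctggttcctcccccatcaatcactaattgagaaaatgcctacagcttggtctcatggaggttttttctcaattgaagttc

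TGCTGA or its reverse complement occurred in 7 of the 8 windows, Crybb2 being the one without it, compared with 16.1% of the 32851 promoter windows of the same length in the table. Its first base lay 108 bases before the start in Cryaa (position -108), and at -57 in Cryba1, -67 in Crybb3 and -200 in Crygs. Cryba4 held it at 3 places. TATAAA occurred in 3 of the 8 windows (Cryba1, Crybb1 and Crygs, at -23, -30 and -25), compared with 12.4% of all windows. The heat shock element core GAANNTTC was found in 0 of the 8 windows and in 6.69% of all windows. Cryab, without a window, was not searched. The marked sites in the 5 sequences did not overlap, and a match of letters is not evidence that a factor binds there.

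The libraries held between 5106429 and 8760443 counts per mouse (median 7944665), so that 3 counts, taken as the floor, equal 0.342 to 0.587 CPM, the usual read count scaled by library size, here with TMM library sizes. Intervals and floors cover counting error only. Gnat1, the rod transducin subunit and a photoreceptor marker, was at 8214 to 15546 CPM, as the retina label requires. Cx3cr1, a microglial receptor, was at 1.93 to 6.94 CPM in the 5 CD mice and had 0 counts in every DEP5, DEP10, DEP14 and DEP21 mouse. All p-values below set a difference between groups against the spread between mice. In fits without a suffix term, that spread also holds any difference between RE and re mice.

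The 8 crystallins other than Cryab were near 0 in most retinas. Their summed level had a median of 1.04 CPM over 65 mice, with 32 mice under 1 CPM, 28 between 1 and 5 CPM, and 5 mice above 5 CPM. These 5 were DEP14 replicate 1 (62.5 CPM, 468 counts), DEP14 replicate 2 (45.9 CPM, 371 counts), CD replicate 4 (15.5 CPM, 132 counts), DEP5 replicate 3 (12.7 CPM, 104 counts) and DEP10 replicate 1 (7.28 CPM, 55 counts). All 8 genes had at least 1 count in each of them. Together these 5 mice held 65.7% of the 1721 counts that the 8 genes had in the whole series, and the 2 DEP14 mice alone held 48.8%. In bulk tissue, fewer cells of a type and less RNA per cell cannot be told apart.

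**Figure D1:**
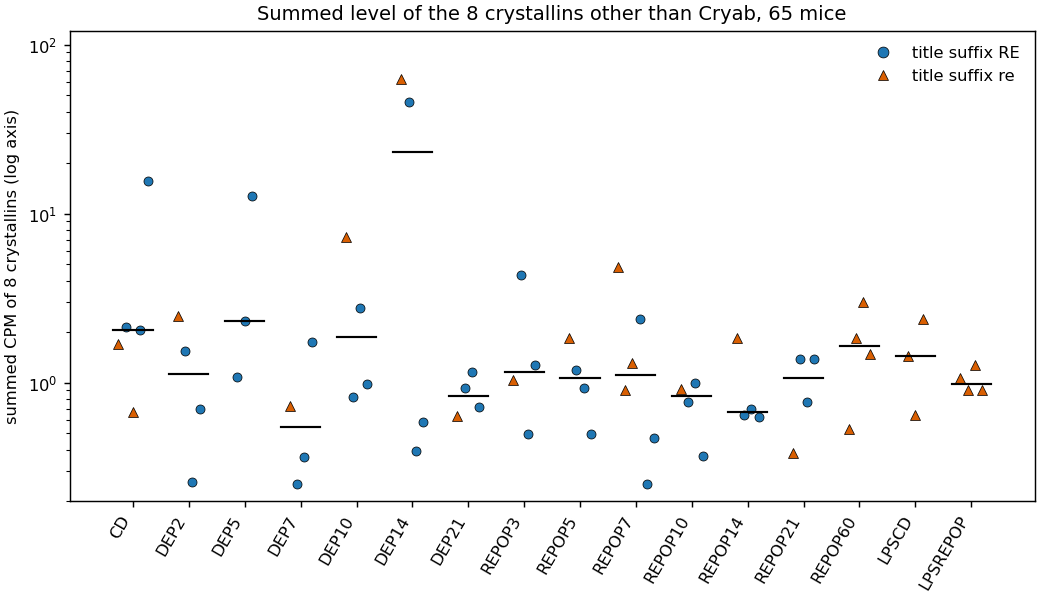
Summed level of the 8 crystallins other than Cryab in each of 65 mice (vertical axis, CPM, log scale) by group (horizontal axis), with circles for RE mice, triangles for re mice and bars at group medians. DEP14 holds mice at 62.5 and 45.9 CPM beside 2 mice under 1 CPM, and single high mice stand in CD (15.5), DEP5 (12.7) and DEP10 (7.28).

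The high mice came from 4 groups and both title suffixes. DEP14 replicates 3 and 4 had 0 counts of Cryaa, Cryba1, Cryba2, Cryba4 and Crygs, beside the 2 highest mice of the series in the same group. Of the 5 high mice, DEP14 replicate 1 and DEP10 replicate 1 carried the suffix re and the other 3 carried RE. One was a control diet mouse, and the level was under 5 CPM in every mouse of the repopulation and LPS groups, where the highest were REPOP7 replicate 1 (4.81 CPM) and REPOP3 replicate 2 (4.32 CPM).

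Cryaa, the lens chaperone that pairs with Cryab in lens fibres, was one of the genes with this pattern. It was at 25.1, 10.5, 0 and 0 CPM in the 4 DEP14 mice, at 5.88 CPM in CD replicate 4, 3.41 CPM in DEP5 replicate 3 and 3.18 CPM in DEP10 replicate 1. The other 4 CD mice were at 0 to 0.260 CPM, and the highest of the remaining 60 mice was at 1.17 CPM. Cryaa had no count in 35 mice, and 85.8% of its 437 counts came from the 5 high mice, which are 7.69% of all mice.

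Crybb2, a major beta-crystallin of the adult lens, was at 14.3, 17.2, 0 and 0.234 CPM in DEP14, 5.73 CPM in DEP5 replicate 3, 3.53 CPM in CD replicate 4 and 1.19 CPM in DEP10 replicate 1. Cryba1, another structural beta-crystallin, was at 7.21, 7.18, 0 and 0 CPM in DEP14 and at 2.59 CPM in CD replicate 4. Crygs, the gamma-crystallin of the lens cortex, was at 4.81, 3.09, 0 and 0 CPM in DEP14, at 0.940 CPM in CD replicate 4, and never above 2 counts in the 60 mice outside the 5. In each of the 3 genes the same 2 DEP14 mice were the highest in the series, and the other 2 were at or next to 0.

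Cryba2 and Cryba4 followed at lower levels. Cryba2 reached 4.28 and 3.09 CPM and Cryba4 reached 3.61 and 2.85 CPM in DEP14 replicates 1 and 2, and both had 0 counts in replicates 3 and 4. Outside the 5 high mice, Cryba4 never exceeded 3 counts and Cryba2 never exceeded 4.

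Crybb1 and Crybb3 were spread more evenly. Crybb1 was highest in the same 2 DEP14 mice (1.34 and 1.11 CPM), but only 27.1% of its 107 counts fell in the 5 high mice. Crybb3 was the one member of the 8 with a count in all 65 mice, at 0.116 to 1.87 CPM with a median of 0.508 CPM. Over mice without LPS its mean was 0.800 CPM (SD 0.463) in 19 re mice and 0.456 CPM (SD 0.237) in 39 RE mice. Its highest mouse was also DEP14 replicate 1, yet 12.6% of its 301 counts came from the 5 mice, and REPOP60 replicate 3 stood at 1.56 CPM while its Cryaa was at 0.520 CPM. On the deposited FPKM, which are per length of transcript, DEP14 replicate 1 was at 22.5 for Cryaa, 15.7 for Crybb2, 8.33 for Cryba1, 6.05 for Crygs and 1.72 for Crybb3.

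Across mice the members moved as one block with 2 looser genes and Cryab apart. Over the 39 RE mice, Pearson's r of log2(CPM + 1) among Cryaa, Cryba1, Cryba2, Cryba4, Crybb2 and Crygs was 0.80 to 0.96, and over the 26 re mice it was 0.90 to 0.97. Crybb1 correlated with these 6 at 0.53 to 0.63 (RE) and 0.67 to 0.77 (re), and Crybb3 at 0.37 to 0.46 and 0.34 to 0.46. The median over all 28 pairs of the 8 genes was 0.82 in RE mice and 0.91 in re mice. The points share library, depth and retina, and no p is given.

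The block rested on few mice. Without the 2 mice farthest from the median summed level (DEP14 replicate 2 and CD replicate 4), the median r over the remaining 37 RE mice was 0.43. Without DEP14 replicate 1 and DEP10 replicate 1, it was 0.29 over the remaining 24 re mice. On ranks (Spearman's rho) the medians were 0.48 and 0.37, where most mice are tied at or near 0.

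**Figure D2:**
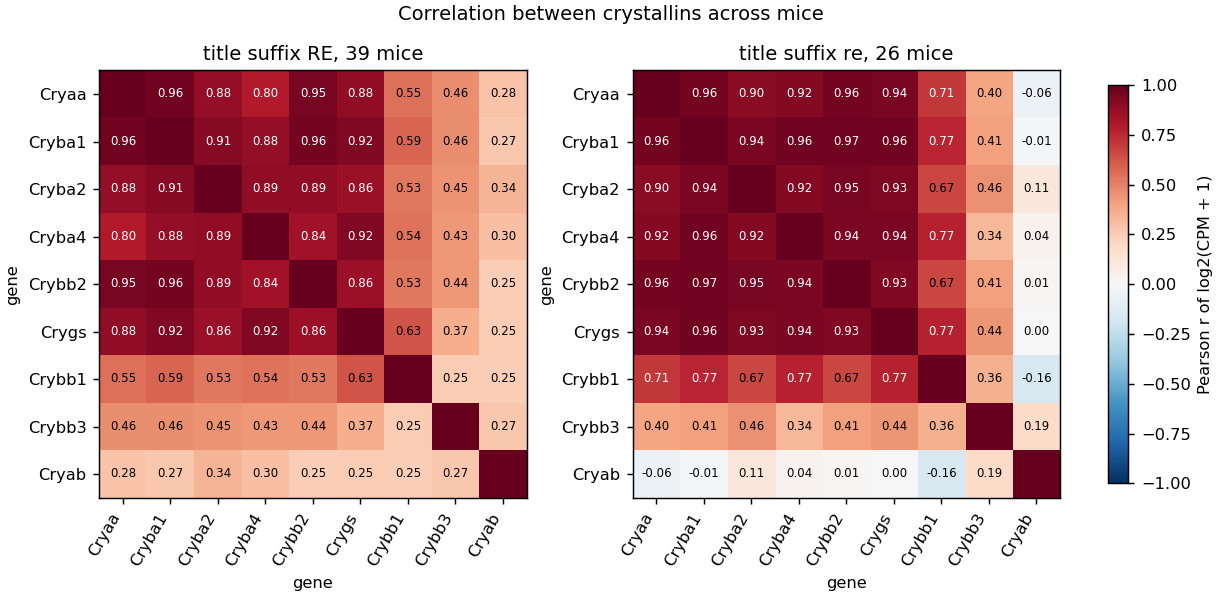
Pearson's r of log2(CPM + 1) between the 9 crystallins over the 39 RE mice (left) and the 26 re mice (right), both axes listing genes and colour running from -1 to 1. Cryaa, Cryba1, Cryba2, Cryba4, Crybb2 and Crygs form a block at 0.80 or above, Crybb1 and Crybb3 are lower, and Cryab lies between -0.16 and 0.34 against every other member.

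The makeup of the lens crystallin counts differed between the high mice. Of the 468 counts of the 8 genes in DEP14 replicate 1, Cryaa made up 40.2% (exact Clopper-Pearson 95% interval 35.7 to 44.8%) and Crybb2 22.9% (19.1 to 26.9%). In DEP14 replicate 2 the shares were 22.9% (18.7 to 27.5%) for Cryaa and 37.5% (32.5 to 42.6%) for Crybb2 of 371 counts. The intervals of these 2 mice do not overlap for either gene, so the ratio of the genes differed beyond counting error. DEP5 replicate 3, with Crybb2 at 45.2% (35.4 to 55.3%), was like DEP14 replicate 2, and CD replicate 4, with Cryaa at 37.9% (29.6 to 46.7%), was like DEP14 replicate 1. Shares of Cryba1 were 11.5 to 16.7% in the 5 mice, with overlapping intervals.

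**Figure D3:**
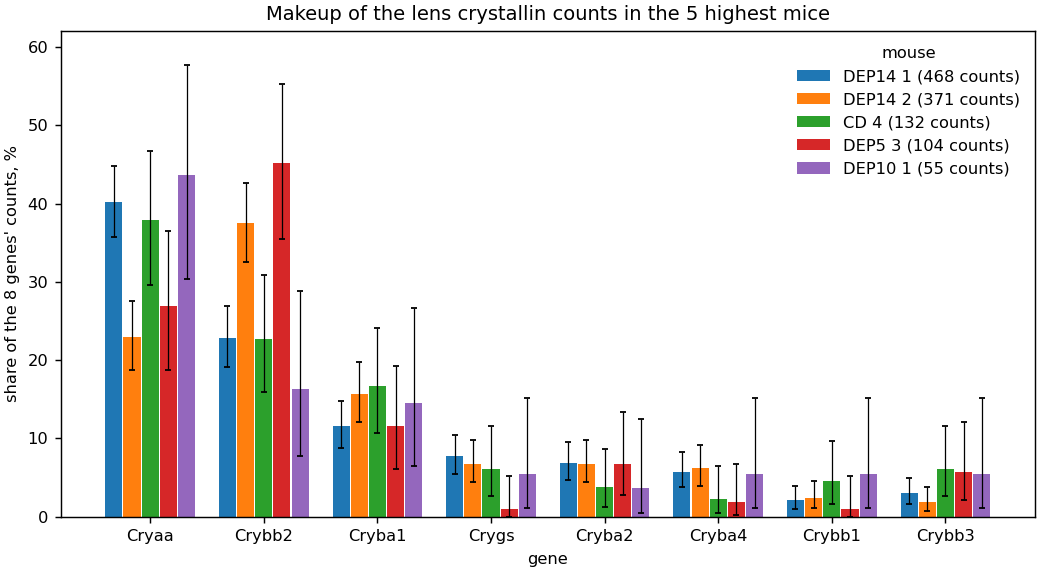
Share of each gene in the counts of the 8 crystallins (vertical axis, %) in the 5 mice with the highest summed level, with bars by gene and mouse and exact 95% binomial intervals. Cryaa is 40.2% and Crybb2 22.9% in DEP14 1, against 22.9% and 37.5% in DEP14 2.

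A few other lens gamma-crystallins had counts in some of the same mice. The close gamma-crystallins Crygb, Crygc and Crygd had 0 counts in 59, 56 and 58 of 65 mice. Crygb had 7, 6, 8, 8 and 2 counts in DEP14 replicates 1 and 2, CD replicate 4, DEP5 replicate 3 and DEP10 replicate 1, and at most 3 elsewhere. In the same order Crygc had 8, 2, 0, 4 and 0 counts and Crygd 6, 1, 4, 4 and 1, with at most 2 and 1 elsewhere. Cryga, Cryge and Crygf never exceeded 1 count in any mouse. These genes are near-identical, so reads may be split between them, and each was chosen from its list after its values were seen. Of the whole list of 14 other crystallins the summed level was 108 to 146 CPM and the 5 mice ranked between 8 and 44, since Cryzl1, Crybg3, Crym and Cryz, relatives present in every retina, held most of it.

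The list of 15 lens fibre and lens epithelium genes was not high as a whole in these mice. Its summed level ran from 271 to 359 CPM and was mostly Tdrd7, a granule protein present in every retina at 260 to 351 CPM. Lim2, a lens fibre membrane protein that like Mip and Bfsp1 was named here after its values were seen, was at 0 in all 65 mice. Mip, the lens fibre water channel, was at 1.47, 0.371, 0.705, 1.59 and 0.926 CPM in the 5 mice in the order above, against a series maximum of 1.62 CPM in REPOP21 replicate 4. Bfsp1, a beaded filament protein, was at its series maximum of 2.40 CPM in DEP14 replicate 1. With Tdrd7 and Hsf4 left out, a choice made after the values were seen, the other 13 lens genes summed to 5.88 CPM in DEP14 replicate 1, rank 1 of 65, 3.22 CPM in DEP14 replicate 2, rank 4, and 3.05, 2.35 and 1.98 CPM in DEP5 replicate 3, CD replicate 4 and DEP10 replicate 1, ranks 6, 29 and 42.

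Markers of other tissues near the retina took different ranks in these mice. The 10 pigment epithelium genes, with Rpe65 and Best1 among them, summed to 6.36 to 58.6 CPM over the series and to 21.6 CPM (rank 23), 46.5 CPM (rank 2), 24.6 CPM (rank 19), 16.8 CPM (rank 45) and 18.0 CPM (rank 39) in the same order. The 6 ciliary body and iris genes ranked the 5 mice between 13 and 61, the 6 corneal and surface epithelium genes between 26 and 55, the 5 scleral and choroidal genes between 14 and 59, and the 5 oligodendrocyte genes between 13 and 49. The part of lens or other tissue in the crystallin counts was not tested.

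In comparisons with CD, no member was a differentially expressed gene (edgeR quasi-likelihood test, Benjamini-Hochberg FDR under 0.01 and absolute log2 fold change above 1). The count was 0 of the 8 or 9 members tested in all 13 comparisons of depletion and repopulation groups, and DESeq2 also called 0. Of all genes tested, the same rule called 0.0334% in DEP2 and 0.0345% in DEP5. The share was 0.0375% for DEP7 mice, 0.0376% for DEP10, 0.0335% for DEP14 mice and 0.0337% for DEP21. It was 0.0377% in REPOP3, 0.0336% in REPOP5, 0.0594% in REPOP7 and 0% in each later repopulation group (REPOP10, REPOP14, REPOP21, REPOP60).

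In DEP14, 6 members (Cryaa, Cryba1, Cryba2, Cryba4, Crybb2 and Crygs) were higher at an unadjusted p under 0.05, which 1.4% of all genes reached in that direction, with an FDR of 0.946 for each by edgeR. DEP14 mice had a part in the choice of 4 of them, and nothing is read from their count. Of the other 2, Cryba2 had a fitted log2 fold change of 2.66 (SE 0.98), and Cryba4 was at or under 3 counts in every CD mouse. Same-numbered DEP14 and CD mice deviated together (4 pairs, r 0.33 to 0.78 over 12346 genes). In both groups replicate 1 was re and replicates 2 to 4 were RE, so pairing by number cannot be told apart from the title suffix. A fit blocked on replicate number called the 6 genes, as it did 0.155% of all genes, a count from which nothing is read either. The pairs did not share a direction: Cryaa was higher in DEP14 in pairs 1 and 2 (25.1 against 0.260 and 10.5 against 0 CPM) and lower in pairs 3 and 4 (0 against 0.257 and 0 against 5.88 CPM). Without DEP14 replicates 1 and 2, the mean of the remaining 2 mice was below that of CD for all 6 genes, with differences of -1.28 CPM for Cryaa and -0.784 CPM for Crybb2. With CD replicate 4 left out as well they were -0.129 and -0.128 CPM.

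Elsewhere several members lay below CD at an unadjusted p under 0.05. DEP2 had 2 such members (1.41% of all genes were lower at that p), 4 were in DEP7 (2.2%), 3 in DEP21 (1.6%), 1 in REPOP3 (1.65%), 4 in REPOP5 (1.98%), and 3 in REPOP10 (2.62%). There were 4 in REPOP14 (1.1%), 5 in REPOP21 (5.61%) and 3 at 2 months (REPOP60, 9%), and 0 in the DEP5, DEP10, DEP14 and REPOP7 comparisons. Cryab was among them in REPOP5 and REPOP21. All of these comparisons share the CD mice. Without CD replicate 4 the counts were 1, 1, 2, 0, 1, 0, 2, 0 and 0 in the same order. The replicate block is given for comparisons in which same-numbered mice deviated together, with the same limit on the suffix. It called 3 members lower in DEP7 (Cryaa, Cryba1 and Crybb2, 0.187% of all genes called) and 2 in REPOP5 (Cryaa and Crybb2, 0.0695%). In REPOP10 it called 2 (the same pair, 0.147%), and in REPOP21 it called Cryaa (0.127%). The pair with CD replicate 4 is part of each of those fits, and nothing is read from the REPOP10 counts. REPOP10 mice had a part in the choice of 4 members, which were at 0 to 0.127 CPM in all 4 REPOP10 mice against 0 to 25.1 CPM in DEP14.

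A test of any difference among the 16 groups, with the title suffix as a term, called 7 of 9 members at an FDR under 0.01, beside 2.24% of 28211 genes. DEP14 and REPOP10 mice enter this test, so the count is in part fixed by the choice of Cryaa, Cryba1, Crybb2 and Crygs, and it is read only for the others. Of these, Cryba2 (FDR 1.6e-05), Cryba4 (4.2e-05) and Cryab (0.00125) were called, and Crybb1 (0.591) and Crybb3 (0.817) were not. Without DEP14 replicate 1 the count was 4, and without DEP14 replicates 1 and 2 it was 2, Cryab (FDR 0.00077) and Crybb2 (0.0066). Likewise DESeq2 called 4 members, Cryab, Cryba2, Cryba4 and Crybb2, with an FDR of 0.0129 for Cryaa. Cryba2 and Cryba4 were thus not called without DEP14 replicates 1 and 2. Nothing is read from the calls of Cryaa, Cryba1, Crybb2 and Crygs in any of these fits. The call of Cryab was lost without LPSCD replicate 3 (FDR 0.0539) and with the replicate block (0.0319).

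Cryab, the small heat shock protein of glia, muscle and lens, was present in every retina. It had 125 counts or more in each of the 65 mice, and over the 58 mice without LPS it ran from 15.5 to 28.1 CPM. Group means in these 14 groups lay between 19.9 ± 4.10 (REPOP21, SD, n = 4) and 24.4 ± 1.03 CPM (REPOP60, n = 4), with CD at 24.1 ± 1.57 CPM (n = 5), and the order of neighbouring groups did not exceed their spread. The level was 23.4 ± 2.42 CPM in 19 re mice and 22.0 ± 3.67 CPM in 39 RE mice.

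None of the depletion or repopulation groups differed from CD in Cryab by the rule. The lowest unadjusted p values were in REPOP21 (log2 fold change -0.29, SE 0.13, FDR 0.513 by edgeR) and REPOP5 (-0.25, SE 0.11, FDR 0.881 by edgeR). In the 5 mice with high lens crystallins Cryab was at 28.1, 25.7, 24.7, 26.6 and 20.9 CPM (ranks 8, 19, 25, 13 and 44 of 65, with the 7 LPS mice at ranks 1 to 7). DEP14 replicate 1 thus held the highest Cryab of the 58 mice without LPS. Next was DEP21 replicate 3 at 28.0 CPM, where the other 8 crystallins summed to 1.15 CPM. The correlation of Cryab with the 8 others had a median of 0.27 over RE mice and 0.01 over re mice.

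**Figure D4:**
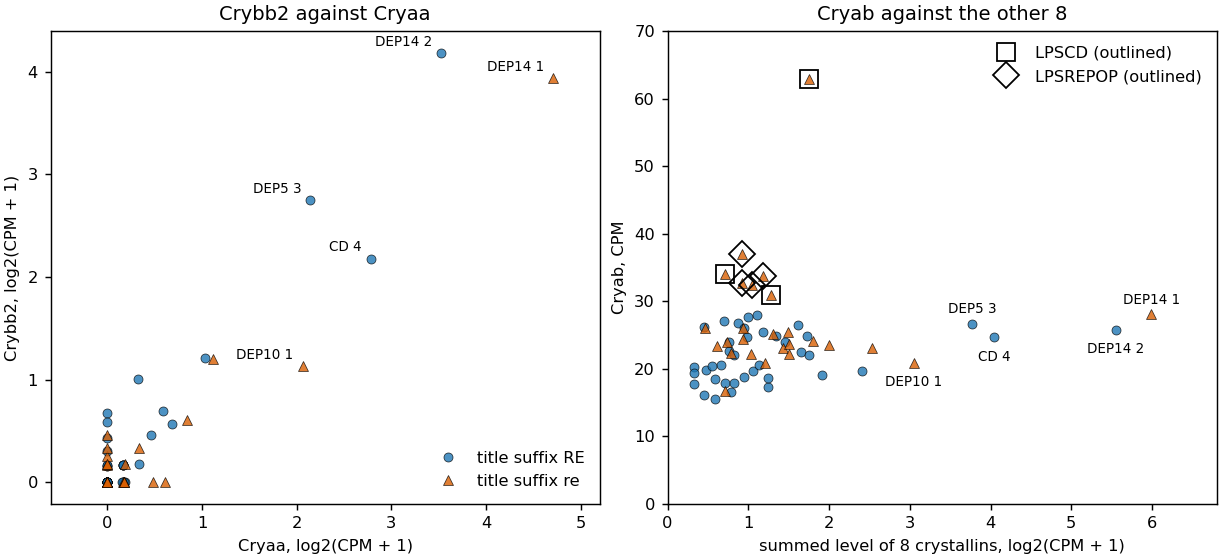
Left, Crybb2 against Cryaa as log2(CPM + 1) in each of 65 mice. Right, Cryab (CPM) against the summed level of the other 8 crystallins as log2(CPM + 1), with the 3 LPSCD mice in squares and the 4 LPSREPOP mice in diamonds. The 5 labelled mice lie along a rising band at left, while at right they hold Cryab at 20.9 to 28.1 CPM and the LPS mice hold 30.9 to 62.9 CPM at low lens crystallin levels.

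Cryab was higher in retinas of mice given LPS. It was at 30.9, 34.0 and 62.9 CPM in the LPSCD mice and at 32.4, 37.0, 33.8 and 32.7 CPM in the LPSREPOP mice, compared with 22.4 to 26.5 CPM in CD and 23.4 to 25.4 CPM in REPOP60. Each of the 7 LPS mice lay above each of the 58 others, as was the case for 0.216% of 28211 genes. All 7 LPS mice were of the suffix re, and so were the 4 REPOP60 mice and 2 of the 5 CD mice.

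**Figure D5:**
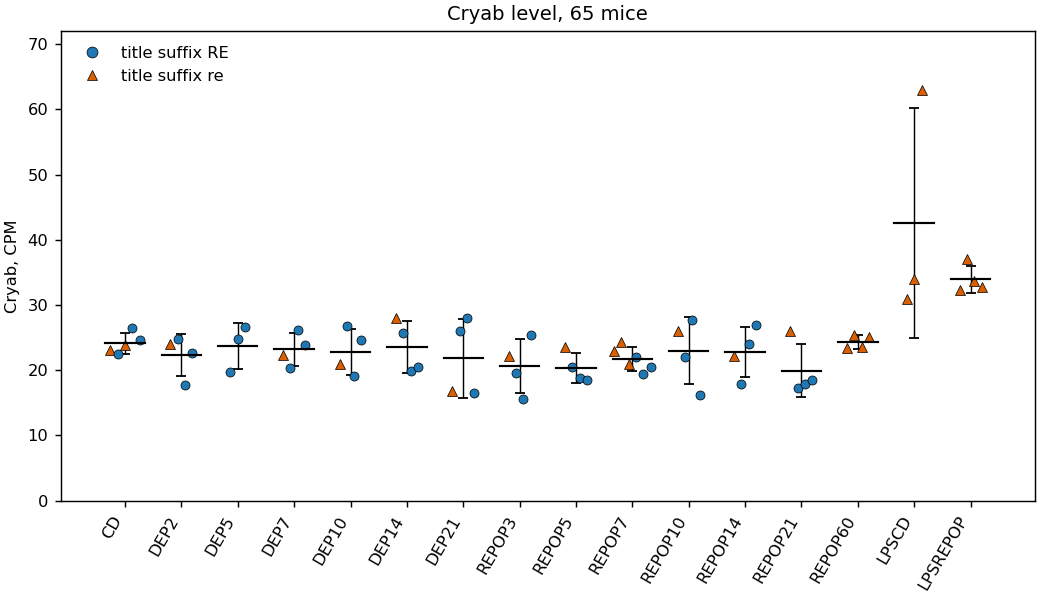
Cryab level (vertical axis, CPM, from 0) in each of 65 mice by group, with circles for RE mice, triangles for re mice, and bars and whiskers at the mean ± SD. The 58 mice without LPS lie between 15.5 and 28.1 CPM, and the 7 LPS mice between 30.9 and 62.9 CPM, LPSCD replicate 3 standing highest.

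LPSCD exceeded CD by a log2 fold change of 0.82 (SE 0.19, FDR 0.0403 by edgeR), which does not pass the FDR under 0.01 or the fold of the rule. In that comparison 0 of 8 members were called beside 0.165% of all genes, and Cryab was the 1 member higher at an unadjusted p under 0.05 (11.4% of all genes), while Cryaa was the 1 lower (11.3%). Cryaa was at 5.88 CPM in CD replicate 4 and at 0 to 0.260 CPM in the other CD mice, against 0 to 0.128 CPM in LPSCD. The fold of Cryab leaned on LPSCD replicate 3. Without it the log2 fold change was 0.42 (SE 0.13, FDR 0.301 by edgeR), and without LPSCD replicate 1 it was 1.01 (SE 0.18, FDR 0.00454 by edgeR), a call. DESeq2 gave 0.83 (FDR 0.00528), and the fit with the title suffix as a covariate 0.86 (SE 0.24, FDR 0.26 by edgeR). Among re mice alone, with 3 LPSCD and 2 CD mice, it was 0.85 (SE 0.29, FDR 0.69 by edgeR).

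The LPSREPOP label gives no repopulation time, so here and below LPS cannot be told apart from a difference in time from REPOP60. LPSREPOP exceeded REPOP60 in Cryab, both wholly of re mice, by a log2 fold change of 0.48 (SE 0.08, FDR 7.0e-04 by edgeR). This passed the FDR, which 1.31% of all genes did, but not the fold threshold, and 0 of 8 members were called beside 0.437% of all genes. Cryab was the only member at an unadjusted p under 0.05 in that comparison (7.54% of all genes were higher at that p). The FDR of Cryab was 8.6e-04 to 0.011 with any single mouse left out, above 0.01 without REPOP60 replicate 1, 3 or 4, and 0.269 where all 16 groups shared 1 estimate of the spread. On FPKM, LPSREPOP replicate 4 was at 19.6, inside the range of mice without LPS, and the 2 measures of Cryab correlated at r = 0.54 over 65 mice.

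The LPS groups did not differ by the rule. LPSREPOP against LPSCD gave a log2 fold change of -0.33 with an FDR of 0.637 by edgeR. Without LPSCD replicate 3 the log2 fold change turned to 0.073. The LPS effect in repopulated mice (LPSREPOP less REPOP60, with that limit on time) less that in control diet mice was -0.34 (SE 0.21, FDR 0.473 by edgeR). In both, 0 members and 0% of all genes were called, and 0 members reached an unadjusted p under 0.05. Both depended on LPSCD replicate 1. Without it, 86 of 26366 genes were called in the first and 190 of 27145 in the second, and Cryab had log2 fold changes of -0.51 (FDR 0.133 by edgeR) and -0.52 (FDR 0.117 by edgeR), not called.

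The other 8 members stayed low in the LPS mice. They summed to 1.43, 0.639 and 2.38 CPM in LPSCD and to 0.902 to 1.27 CPM in LPSREPOP. Hspb2, the head to head neighbour of Cryab, was at or under 5 counts in all 65 mice. Of 14 small heat shock and heat shock response genes, 0 were called in either LPS comparison with its control. The summed level was 982 to 1264 CPM in LPSCD, all re mice, against 1068 to 1619 CPM in CD, which held both suffixes. Between the 2 groups wholly of re mice, it was 905 to 1240 CPM in LPSREPOP against 1098 to 1188 CPM in REPOP60.

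Some glial stress genes were higher in the LPS groups. Of 12 such genes, 2 were called higher in LPSCD against CD (0.165% of all genes were called), Serpina3n and Lcn2 (log2 fold changes 4.54 and 3.92, FDR 0.00345 for each by edgeR), and 3 in LPSREPOP against REPOP60 (0.437% of all genes), the same 2 and C4b. Serpina3n and Lcn2 are acute phase markers of reactive astrocytes, and C4b is a complement component. The 12 genes summed to 332, 502 and 1218 CPM in the LPSCD mice against 276 to 351 CPM in CD, and to 292 to 622 CPM in LPSREPOP against 273 to 288 CPM in REPOP60. LPSCD replicate 3, the highest in Cryab, was the highest of 65, while the lowest LPSCD mouse lay inside the CD range. In the re mice, which hold the LPS groups, Cryab correlated with Serpina3n at 0.83 and with Gfap, a filament of reactive glia, at 0.51, and in the 39 RE mice, none given LPS, at 0.19 and -0.02. Of the 10 Müller glia genes, 0 were called in either comparison, with a summed level of 2926 to 3811 CPM in LPSCD and 3491 to 3775 CPM in CD. Without the fold threshold, 3 of them passed the FDR in LPSREPOP against REPOP60: Vim, a filament of Müller glia (log2 fold change 0.74, FDR 1.46e-07 by edgeR), Prdx6 (0.32, FDR 0.00168 by edgeR) and Rlbp1, a retinoid carrier, which was lower (-0.57, FDR 0.00112 by edgeR). In LPSCD against CD none passed it. Of the 10 genes, 4 were higher and 3 lower there at an unadjusted p under 0.05 by edgeR (11.4% and 11.3% of all genes). Vim was at 0.79 (FDR 0.0293 by edgeR), Slc1a3 at -0.54 (FDR 0.0227 by edgeR) and Abca8a at -0.78 (FDR 0.0237 by edgeR). The Müller glia genes given by name were chosen after their values were seen. The 6 microglial genes summed to 43.4 to 60.4 CPM in LPSCD against 13.9 to 22.9 CPM in CD, and 3 of them, C1qa, C1qb and C1qc, were called higher in each comparison. The part of these cells in the level of Cryab was not tested.

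Among the genes whose levels ran most like Cryab over both title suffixes were Tsc22d4, a leucine zipper regulator (r 0.80 over RE and 0.84 over re mice), Clu, a secreted chaperone (0.71 and 0.89), Ctsd, a lysosomal protease (0.70 and 0.72), and Rap1gap (0.69 and 0.75). Crygb, Crygc and Crygd, all under 1 CPM on average, correlated with Cryaa at 0.87, 0.58 and 0.76 over RE mice. Over re mice they were at 0.96, 0.89 and 0.92. They had 0 counts in most mice, so these values rest on a few mice. Other lens genes were lower, with Bfsp1 at 0.37 (RE) and 0.64 (re), Mip at -0.04 and 0.43, and Bfsp2 at 0.15 and -0.31. Among genes with a mean of at least 1 CPM no gene came near the values of Crygb and Crygd. The lens members themselves, at means of 0.167 (Crygs) to 0.862 CPM (Cryaa), lie under that cut. Genes at their level were thus not ranked, and nothing is read from the absence. The most like Cryaa were Rasgrp3, Pih1d2, Gm6225, Cntn3 and Gm29434, with the lower of the 2 correlations at 0.33 to 0.35. For Crygs they were Kcnf1, Rnf217, Gm29434, Eif2b5 and Tssc4, at 0.30 to 0.36.

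Lens members varied within groups more than most genes. About the means of mice of the same group and suffix, the SD of log2(CPM + 1) was 0.74 for Crybb2, 0.69 for Cryaa and 0.51 for Cryba1, above 99.9%, 99.9% and 99.7% of 21573 genes with a mean above 0.1 CPM. Cryba2, Crygs, Cryba4 and Crybb3 stood above 95.3%, 94.3%, 90.9% and 86.3% of them. Crybb1, at 0.25 and above 76.9%, was close to Cryab, at 0.24 and above 73.7%. DEP14 and REPOP10 mice, which had a part in the choice of Cryaa, Cryba1, Crybb2 and Crygs, enter these values. The places of those genes are thus in part fixed by that choice, and only the places of the others are read.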

How the data were processed

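Total RNA of 65 mouse retinas was sequenced on BGISEQ-500 in 50-base reads. Read counts per gene were made by the authors with HISAT2 and HTSeq on mm10, and the deposited FPKM values by the authors with StringTie. Tool versions and the strand setting are not given in the sources used here. From the counts, CPM with TMM library sizes were computed, and groups were compared with edgeR 4.0.16 (R 4.3.3), glmQLFit and glmQLFTest, keeping genes with at least 1 count in at least 0.5 of the mice of a compared group. A gene was called at an FDR (Benjamini-Hochberg) under 0.01 with a log2 fold change beyond 1 either way. DESeq2 1.42.0, other filters, scalings, a replicate block and left-out mice were alternatives. The scripts were tested on simulated data. Correlations used log2(CPM + 1). Named genes were the members, with folds where an unadjusted p was under 0.05 (the comparisons of the LPS groups for Cryab were added after its values were seen), Hspb2, Cx3cr1, at most 3 genes a list (those called, else the highest), unless said otherwise, and the 5 genes most like Cryab, Cryaa and Crygs by the lower of 2 correlations among 15877 genes with a mean of at least 1 CPM. Members and lists were chosen with earlier results of these data known. Same-numbered mice deviated together in every pair (r above 0.1) in DEP2, DEP7, DEP10, DEP14, REPOP3, REPOP5, REPOP10 and REPOP21 against CD. All 4 pairs in each of these comparisons were of the same title suffix, so pairing and suffix cannot be told apart. Depth was 5106429 to 8760443 counts per mouse. One gene of the likeness ranking and the photoreceptor list sum are not reported here.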

Additional observations from a re-analysis of the deposited data

Results flagged for a closer look

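Dixon's criterion marks 1 mouse far from the others of its group, and by chance alone flags about 1 in 20 groups of normally distributed values. That rate does not hold here, since many sets hold zeros and several genes were high in the same mice. In 11 of 57 sets of 4 to 6 mice tested, 1 mouse stood far from the others of its group by this criterion. CD replicate 4 did so for Cryaa (5.88 CPM, nearest other mouse 0.260), Cryba1 (2.59, nearest 0.386), Crybb2 (3.53, nearest 0.593) and Crygs (0.940, nearest 0.119). REPOP3 replicate 2 did so for Cryaa (1.05 CPM, nearest 0.116), Cryba1 (0.786, nearest 0) and Crybb2 (1.31, nearest 0.124). Single genes set apart DEP10 replicate 1 for Cryaa (3.18 CPM, nearest 0.251), DEP2 replicate 1 for Cryaa (0.786, nearest 0.117) and DEP2 replicate 2 for Crybb1 (0.712, nearest 0). For Cryab, REPOP21 replicate 1, the one re mouse of its group, was at 26.03 CPM with the nearest other mouse at 18.6 CPM. DEP14 was not set apart in this way for the lens members, since 2 of its 4 mice were high.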

How the results depend on the processing

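A replicate block, pairing mice by number, called 3 members in DEP7, 6 in DEP14, 2 in DEP21 and 2 in REPOP5 against CD. It called 2 in REPOP10, 1 in REPOP14, 1 for REPOP21 and 2 at 2 months (REPOP60), where the fit without it called 0. Same-numbered mice did not deviate together in every pair in DEP21, REPOP14 and REPOP60. LPSREPOP against REPOP60 gave 1 member without a fold threshold, and LPSCD against CD gave 0 to 1 with single mice left out. Of the 7 members called among all 16 groups, filterByExpr left 4, DESeq2 4 and the fit without DEP14 replicates 1 and 2 left 2, and with single mice left out the count was 4 to 7. Single mice were left out of that test for CD, DEP5, DEP10, DEP14 and LPSCD only, and for the other groups it was not run. With single mice left out, the log2 fold change of Cryab was -0.51 to 0.073 for LPSREPOP against LPSCD and -0.52 to 0.052 for the difference of the LPS effects, the sign turning without LPSCD replicate 3. The median correlation of the 8 lens members in RE mice was 0.48 by Spearman's rho and 0.43 without the 2 farthest mice. In re mice it was 0.68 with a pseudocount of 0.1, 0.37 by Spearman's rho, 0.32 on deviations from group means and 0.29 without the 2 farthest mice. For Cryab against the others it was 0.30 on FPKM and 0.21 without the 2 farthest mice in RE mice, and -0.0054 with a pseudocount of 0.1 and -0.096 by Spearman's rho in re mice. In alternatives chosen after seeing the data, the mean CPM of DEP14 less that of CD without DEP14 replicates 1 and 2 was -1.28 for Cryaa, -0.642 for Cryba1, -0.271 for Cryba2, -0.167 for Cryba4, -0.784 for Crybb2 and -0.212 for Crygs. Without CD replicate 4 as well it was -0.129, -0.156, -0.191, -0.121, -0.128 and -0.0297 in that order. The cause was not tested beyond the mice left out. Depth limits all the lens members. Each of them other than Crybb3 was over 3 counts in at most 13 of 65 mice. Crybb3 was over 3 counts in 40 mice, with a median of 4 and a maximum of 14 counts.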
